A study of Mus musculus with 15 samples.

Results

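The cytochrome P450 genes are a large family of haem-containing monooxygenases, here 96 genes of the 22180 genes that the array measured under a single gene symbol. A gene was included when its symbol read Cyp, a number, 1 letter and a number, as in Cyp2e1, which leaves out the cyclophilins, the cypt genes, Cyp51 and the double-lettered Cyp2ab1. The 96 genes had 100 probe sets, 4 genes having more than 1, and the probe set with the highest mean over all samples stood for each gene. RefSeq lists 91 of them as protein coding and 5 as pseudogenes. All 96 were tested, with no filter on low values.

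Whole-kidney RNA came from 15 mice aged about 6 months. The 7 Grhl1+/+ mice (wild type) were replicates 1 to 7, written wt1 to wt7, and the 8 Grhl1-/- mice (knockout) were replicates 8 to 15, written ko8 to ko15. The genotype label of the knockouts reads Grh1 KO. Grhl1 is a transcription factor of the grainyhead family, active in epithelia, and no other allele or agent is named for either group. The labels do not say how the allele was made, nor the strain, sex or litter of the mice. Values are the authors' log2 RMA summaries per probe set, so that a difference of 1 is a 2-fold difference in signal. RMA, robust multi-array average, corrects the background, gives all arrays the same distribution and combines the probes of a set. Levels of different genes are not compared, since probes differ in brightness.

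P450 enzymes insert oxygen into lipids, steroids, vitamins and foreign compounds, with electrons from cytochrome P450 reductase in the endoplasmic reticulum or from ferredoxin in mitochondria. In the kidney, whose proximal tubule is rich in them, they activate and degrade vitamin D, make epoxides and hydroxylated forms of arachidonic acid, and metabolise drugs. Many mouse P450 genes are known to differ between males and females in liver and kidney. Other members are hallmarks of the liver, such as the bile acid enzyme Cyp7a1, or of the adrenal cortex, such as the corticosterone and aldosterone pathway enzymes Cyp11b1 and Cyp11b2.

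The samples differed in ways that the genotype labels do not give, and the P450 genes have to be read with them. Kidney markers averaged between 12.3 and 12.5 in every sample. Liver markers averaged 8.68 in wt3, 10.8 in wt7 and 8.61 in ko10 against 6.55 to 6.84 elsewhere, and 11 of the 13 measured markers, Alb among them, were higher in each of these 3 samples than in all others (Apoh and Ttr were not). Adrenal cortex markers averaged 6.83 to 8.70 in wt2, wt3 and ko10 to ko13 against 5.17 to 5.58 in the other 9 samples. Among them Star, Mc2r and Hsd3b1 separated these 6 samples fully, Mrap and Nr5a1 did not, and all 5 adrenal medulla markers did. That left 8 samples with neither tissue, 4 of each genotype. Y-linked transcripts averaged 8.37 to 8.68 in 10 samples, 5 of each genotype, and 3.96 to 4.26 in wt6, wt7, ko13, ko14 and ko15, in which Xist read 11.4 to 11.6. These sets come from the data and are not groups of the study. Grhl1 itself read 4.96 to 5.25 in wild type and 4.40 to 4.92 in knockouts, without overlap.

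The 96 genes fell into 5 patterns, set by these samples and therefore a description without a test. A total of 21 genes were bright in kidney, with a mean over the 8 samples without other tissue above the 75th percentile of all probe sets (8.10). These were Cyp20a1, Cyp24a1, Cyp27a1, Cyp2a4, Cyp2d12, Cyp2d22, Cyp2d26, Cyp2d9, Cyp2e1, Cyp2f2, Cyp2j11, Cyp2j13, Cyp2j5, Cyp2j6, Cyp2u1, Cyp4a12b, Cyp4a14, Cyp4a31, Cyp4b1, Cyp4f13 and Cyp7b1. They make up 21.9% of the P450 genes, against 26.1% of all genes (25% of all probe sets, which the percentile fixes). Another 11 genes were higher in all 3 samples with liver markers than in the other 12, a pattern shown by 0.54% of all probe sets. A further 4 were higher in all 6 samples with adrenal markers, against 0.123% of all probe sets. In 14 genes a single sample stood more than 1 log2 unit above the next, against 0.302% of all probe sets, and that sample was wt7 each time. The remaining 46 genes were less bright. The cut between bright and less bright ran between Cyp2u1 (mean 8.18 over the 8 samples) and Cyp2c55 (8.04), and Cyp27b1 (7.93) also fell just below it.

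**Figure D1:**
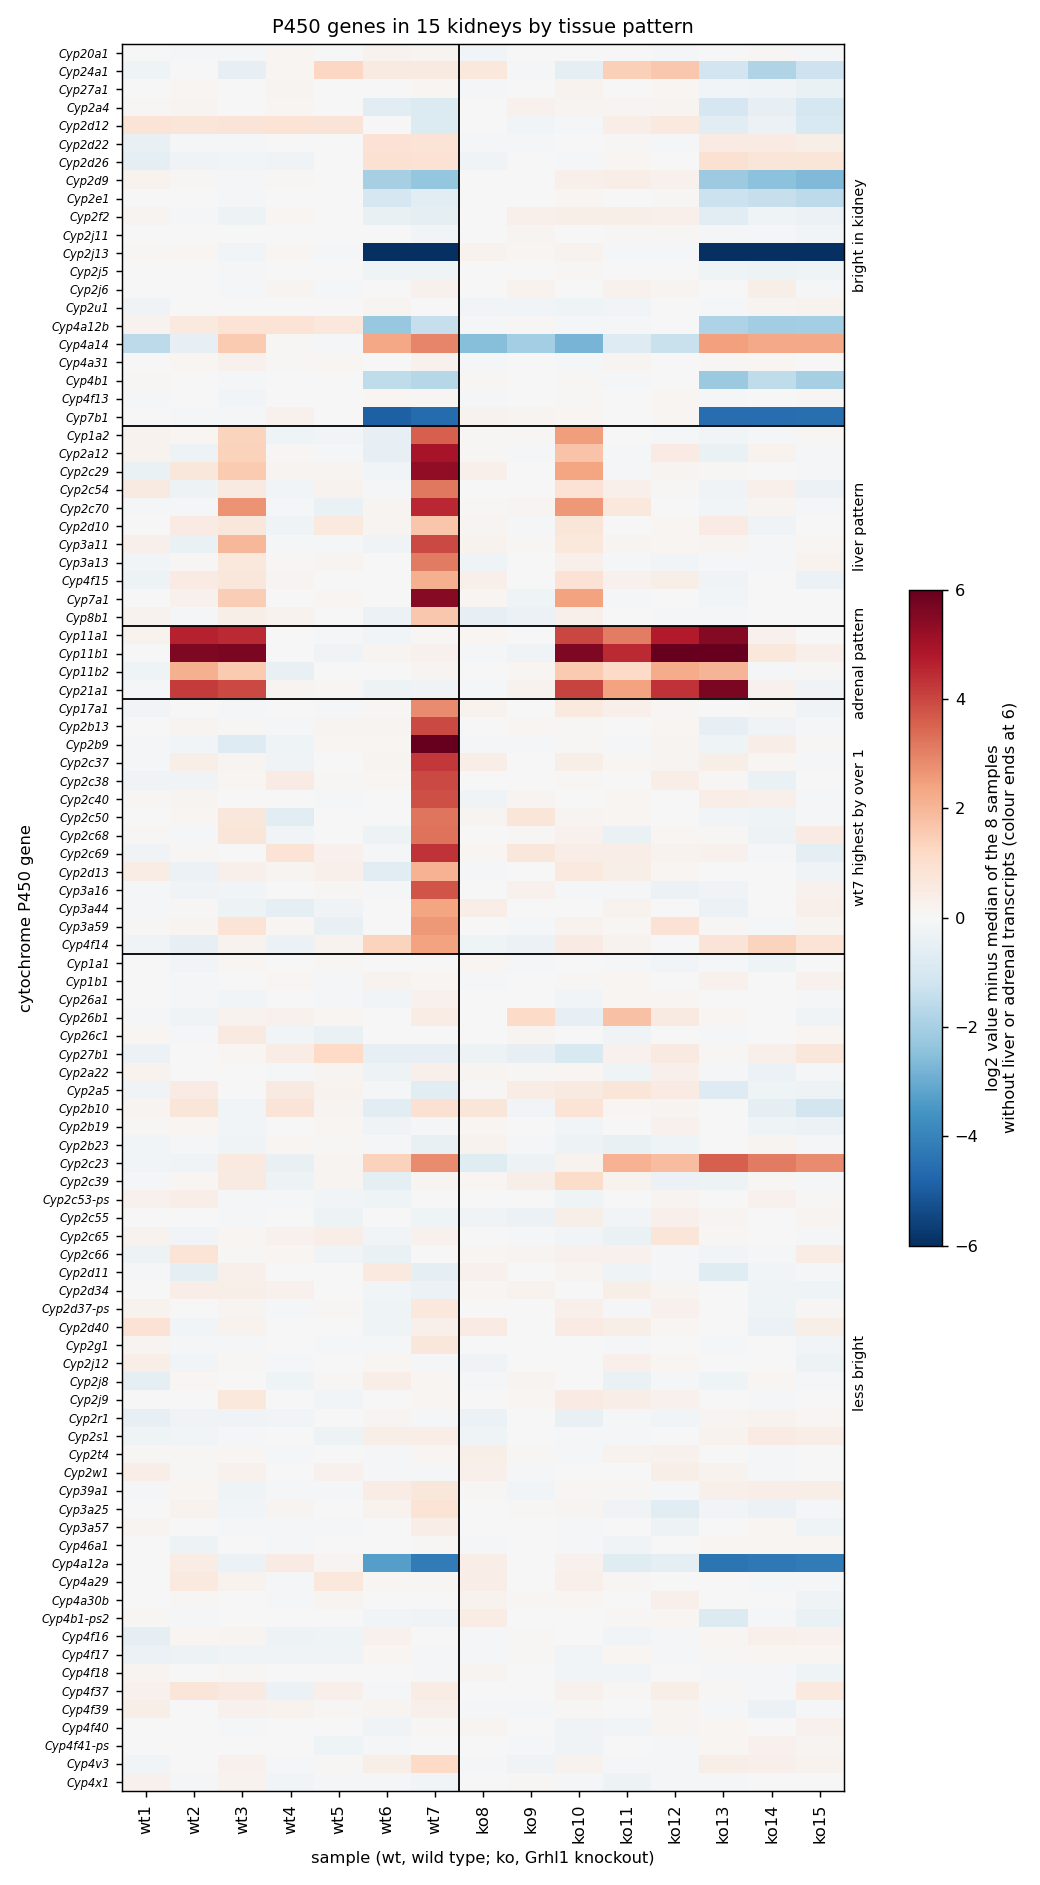
Log2 value of each of the 96 P450 genes (vertical axis) in each of the 15 samples (horizontal axis), minus that gene's median over the 8 samples with neither liver nor adrenal transcripts; red is higher and blue lower, and the colour ends at 6. The liver block is red in wt3, wt7 and ko10, the adrenal block in wt2, wt3 and ko10 to ko13, and the fourth block most in wt7; Cyp2j13 and Cyp7b1 are deep blue in wt6, wt7 and ko13 to ko15.

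The liver block held Cyp1a2, Cyp2a12, Cyp2c29, Cyp2c54, Cyp2c70, Cyp2d10, Cyp3a11, Cyp3a13, Cyp4f15, Cyp7a1 and Cyp8b1. The widest gap was that of Cyp2c70, a bile acid 6-hydroxylase, which read 7.04 in wt3, 8.87 in wt7 and 6.98 in ko10, while no other sample passed 5.01. Cyp7a1, the rate-limiting enzyme of bile acid synthesis, read 4.52, 8.48 and 5.43 in the same order, against at most 3.32 elsewhere. Cyp1a2, an enzyme of aromatic amine metabolism, read 6.23, 8.51 and 7.43 against at most 5.11. In these genes wt7 was the highest sample, as it was in the liver marker mean, and ko10 exceeded wt3 in Cyp7a1 and Cyp1a2 but not in Cyp2c70. Cyp2a12 read 5.68, 9.25 and 6.00 against at most 4.79, and Cyp2c29 read 4.79, 8.57 and 5.59 against at most 3.91. Cyp3a11, a main drug-metabolising enzyme of mouse liver, read 6.31, 8.26 and 4.93 against at most 4.60. The smallest gaps were those of Cyp2c54 (0.02), Cyp8b1 (0.06) and Cyp3a13 (0.08), and the nearest gene outside the block was the pseudogene Cyp2d37-ps, whose lowest liver sample lay 0.07 below the highest other one.

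The 14 genes in which wt7 stood more than 1 above the next sample were Cyp17a1, Cyp2b13, Cyp2b9, Cyp2c37, Cyp2c38, Cyp2c40, Cyp2c50, Cyp2c68, Cyp2c69, Cyp2d13, Cyp3a16, Cyp3a44, Cyp3a59 and Cyp4f14. The last was also raised in the other samples without Y-linked transcripts, as described with them. Cyp2b9, a steroid hydroxylase known for higher levels in livers of female mice, read 11.14 in wt7 and 3.96 to 5.11 in the other 14 samples, with 3.96 in wt3 and 4.77 in ko10. Its relative Cyp2b13 read 8.23 in wt7 against at most 4.43 elsewhere. Cyp2c69 read 8.06 in wt7 against at most 4.56, and Cyp2c40, an arachidonic acid hydroxylase, 6.16 against at most 2.67. The other samples with liver markers, wt3 and ko10, thus lay below the highest of the remaining samples for Cyp2b9. Both carried Y-linked transcripts, and wt7 did not. The liver marker mean was also higher in wt7, at 10.8 against 8.68 in wt3 and 8.61 in ko10. With a single such sample these traits cannot be told apart. Cyp17a1, which makes androgen precursors and is usually named as a steroidogenic gene, read 7.90 in wt7, 5.67 in ko10 and at most 5.40 elsewhere. It did not follow the adrenal marker samples: wt2 read 5.07, wt3 5.0 and ko13 5.07. A pair of probe sets shared by Cyp3a41a, Cyp3a41b, Cyp3a11 and Cyp3a44, which cannot be assigned to 1 gene, read 9.72 and 9.93 in wt7. They were next highest in wt3 (4.87 and 4.93) and ko10 (4.56 and 4.69), the other samples with liver markers, and at most 4.05 and 4.13 elsewhere.

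All 4 genes of the adrenal block encode enzymes of corticosteroid synthesis. Cyp11b1, the steroid 11-beta-hydroxylase of corticosterone synthesis, read 9.73 in wt2, 9.78 in wt3, 9.70 in ko10, 8.57 in ko11, 10.20 in ko12 and 11.55 in ko13, and 3.88 to 4.75 in the other 9 samples. Cyp11a1, the mitochondrial enzyme that cleaves the cholesterol side chain, read 9.43, 9.31, 8.83, 7.88, 9.60 and 10.32 in the same order, and at most 5.09 elsewhere. Cyp21a1, the steroid 21-hydroxylase, read 8.78, 8.53, 8.64, 6.99, 8.91 and 10.22, and at most 4.86 elsewhere. In these 3 genes ko13 was highest and ko11 lowest of the 6, the same ends as in the adrenal cortex marker mean (8.70 and 6.83). Cyp11b2, the aldosterone synthase of the outer adrenal zone, read 6.77, 6.18, 6.20, 5.76, 6.84 and 6.66, and at most 4.81 elsewhere. For Cyp11b2 the highest sample was ko12 rather than ko13. The second probe set of Cyp11a1 read 4.31 to 4.97 over all 15 samples and showed no such rise, so the values of Cyp11a1 rest on its brighter probe set.

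**Figure D2:**
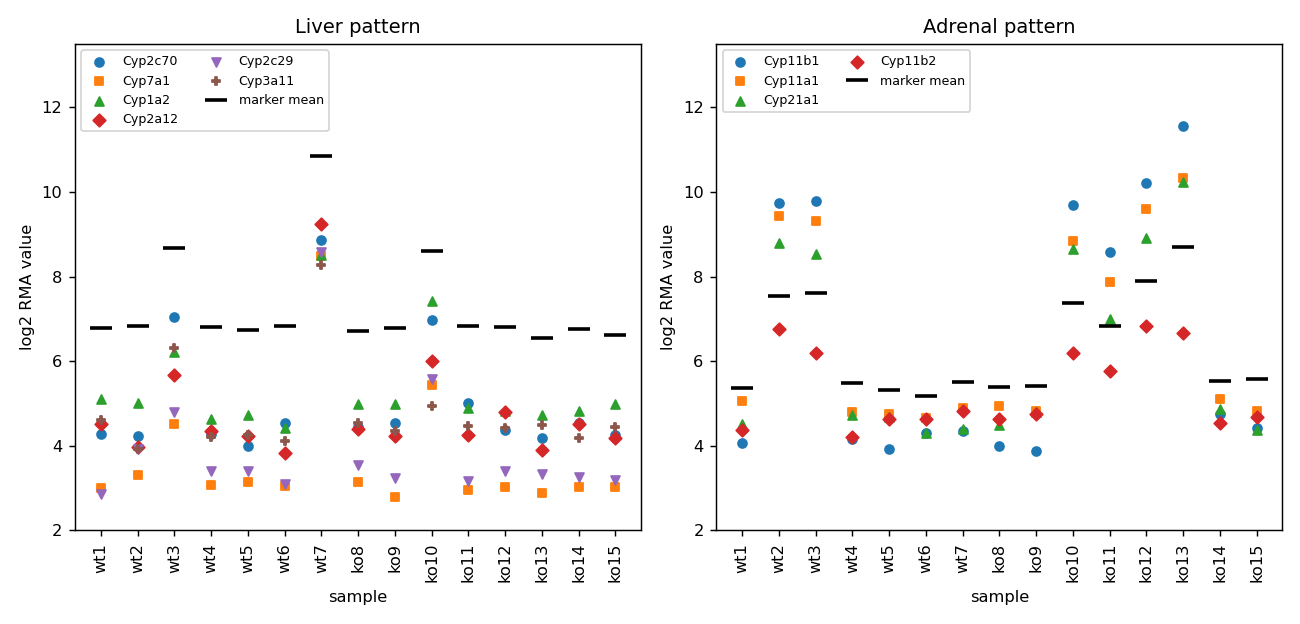
Log2 values in the 15 samples (horizontal axis) of the 6 liver-pattern genes with the widest gap (left) and the 4 adrenal-pattern genes (right), each with the mean of the non-P450 markers of that tissue as a black bar. The liver genes rise in wt3, wt7 and ko10, with wt7 highest, and the adrenal genes in wt2, wt3 and ko10 to ko13.

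The adrenal samples were 2 of 7 wild types and 4 of 8 knockouts, and since the 4 genes were selected for being high in these samples, their genotype differences are a description. Over all samples Cyp11b1 differed by 1.38 (SE 1.40, knockout minus wild type), Cyp21a1 by 0.96, Cyp11a1 by 0.91 and Cyp11b2 by 0.43, with adjusted p from 0.987 to 0.997 in limma. In the 8 samples with neither tissue the differences were 0.16, 0.08, 0.10 and 0.20.

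Among the P450 genes outside the liver, adrenal and wt7 blocks, the strongest differences ran between samples with and without Y-linked transcripts. Cyp2j13, an arachidonic acid epoxygenase, and Cyp7b1, the oxysterol 7-alpha-hydroxylase, had the 2 largest differences, and Cyp4a12a, Cyp4a12b, Cyp2d9, Cyp4b1 and Cyp2e1 were also higher with Y-linked transcripts. Cyp4a14 and Cyp2c23 were higher in the samples without them. In limma with genotype as a second term, 28 of 96 genes (29.2%) passed an adjusted p of 0.05, against 24.9% of all probe sets, 16 higher with Y-linked transcripts (10.6% of all probe sets) and 12 lower (14.4%). The share of genes that passed was thus near the background. Counting only differences over 1 log2 unit, 10 P450 genes (10.4%) passed, against 0.791% of all probe sets. The values of the sets did not overlap for 16 genes (16.7%), against 11.5% of all probe sets. Of the 21 genes bright in kidney, 15 passed (71.4%, against 45.1% of all probe sets that met the same rule for brightness). Of these, 11 were higher (52.4%, against 23.2%) and 4 lower (19%, against 21.9%). The rule for brightness averages over 5 samples with and 3 without Y-linked transcripts, so genes higher with them meet it more easily. The shares among bright genes are therefore a description. Of the liver block and the adrenal block none passed, and of the wt7 block only Cyp4f14 did.

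In the samples with neither tissue, 5 with and 3 without Y-linked transcripts, 26 of 96 genes passed (27.1%), against 13.3% of all probe sets, and 11 did so with over 1 log2 unit (0.906% of all probe sets). Adrenal markers were raised in 5 of the 10 samples with Y-linked transcripts and in 1 of the 5 without, and liver markers in 2 of 10 and 1 of 5. Fat markers averaged 6.81 to 7.56 with Y-linked transcripts and 7.31 to 7.92 without, but the single markers did not run alike. Adipoq (5.44 to 6.17 with, 6.41 to 6.80 without) and Plin1 (7.34 to 8.10 with, 8.17 to 8.66 without) were higher without them. Lep was not (5.44 to 7.31 with, 5.04 to 6.26 without). Ucp1 read 8.00 to 9.09 in wild types and 8.82 to 10.83 in knockouts. The part of fat in the differences was not tested. In whole kidney, fewer cells of a type and less RNA per cell cannot be told apart.

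Of the 20 arachidonic acid epoxygenases and their relatives measured, 3 were higher with Y-linked transcripts (15%, against 10.6% of all probe sets) and 0 lower (against 14.4%). Cyp2j13 read 11.79 at the lowest, 12.06 at the median and 12.19 at the highest in the 10 samples with Y-linked transcripts. It read 5.0 in wt6, 5.04 in wt7, 5.53 in ko13, 5.70 in ko14 and 5.63 in ko15. No sample lay between the sets, and the difference was 6.66 (SE 0.10), with an adjusted p of 1.65e-16 in limma. The lower set lay under the median brightness of all probe sets (6.18), and its signal over background is not known, so no fold is given. Its relative Cyp2j5, a bright renal epoxygenase, differed by 0.28 (13.02 to 13.15 against 12.79 to 12.84, adjusted p 1.03e-05 in limma), and Cyp2j11 by 0.13. Cyp2j6 read 8.33 to 8.78 over all samples and did not pass. Cyp2c23, also known as Cyp2c44, an epoxygenase of the kidney counted outside that list, went the other way. The count of 0 lower therefore depends on how the list was drawn. Cyp2c23 read 5.97 at the lowest, 6.71 at the median and 8.82 at the highest with Y-linked transcripts. In wt6, wt7 and ko13 to ko15 it read 8.08, 9.53, 10.31, 9.82 and 9.55. The sets overlapped through ko11 (8.82) and ko12 (8.55), and the difference was -2.36 (SE 0.42, adjusted p 0.000597 in limma).

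Of the fatty acid hydroxylases of subfamily 4, which make 20-HETE and other hydroxylated lipids, 3 were higher (16.7%, against 10.6% of all probe sets) and 4 lower (22.2%, against 14.4%) of 18 measured. Cyp4a12a, the main 20-HETE synthase known from male mouse kidney, read 6.85, 7.69 and 8.07 at the lowest, median and highest with Y-linked transcripts, and 4.30, 3.38, 3.20, 3.29 and 3.38 in wt6, wt7 and ko13 to ko15. The difference was 4.06 (SE 0.20, adjusted p 1.26e-09 in limma). Cyp4a12b, its near-identical neighbour on chromosome 4, differed by 2.16 (SE 0.14), from 8.66 to 9.63 against 6.53 to 7.43, and probes of so similar a pair may pick up both transcripts. Cyp4b1, which also metabolises furans and other foreign compounds, also separated the sets. It read 13.21, 13.32 and 13.38 with Y-linked transcripts and 11.79, 11.60, 11.08, 11.80 and 11.31 without, a difference of 1.79 (SE 0.09).

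Cyp4a14, a lipid hydroxylase known as a target of the fatty acid receptor Ppara, was the P450 gene with the largest shift in the opposite direction. It read 6.80, 8.53 and 11.17 at the lowest, median and highest with Y-linked transcripts and 11.91, 12.53, 12.05, 11.86 and 11.87 without. The sets did not overlap, wt3 being the highest of those with Y-linked transcripts, and the difference was -3.58 (SE 0.45, adjusted p 2.79e-05 in limma). The neighbouring Cyp4a31 read 12.58 to 12.97 in all samples and did not pass (-0.06, SE 0.06). A probe set shared by Cyp4a10 and Cyp4a31 averaged 12.10 ± 0.28 (SD, n = 10) with and 12.67 ± 0.23 (SD, n = 5) without Y-linked transcripts. Members of the 4a cluster on chromosome 4 therefore ran in both directions. Cyp4f14, a leukotriene hydroxylase, was lower by 1.41 (SE 0.23), 5.77 to 6.76 against 7.04 to 8.68, and Cyp4v3 lower by 0.53 (SE 0.12), with wt7 highest in both.

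Of the sterol enzymes, Cyp7b1 read 11.44, 11.59 and 11.76 at the lowest, median and highest with Y-linked transcripts, and 6.62, 6.87, 6.92, 6.94 and 6.97 without. It was 26.6-fold brighter with them (4.73, SE 0.06, adjusted p 8.45e-17 in limma). This fold is a ratio of array signals, since the signal over background of the lower set is not known. Cyp39a1, which hydroxylates 24-hydroxycholesterol, was lower by 0.48 (SE 0.07), and Cyp46a1, which makes that oxysterol, lower by 0.18. Cyp7a1 and Cyp8b1, the other members of the bile acid and oxysterol list, belong to the liver block and did not pass.

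Of the enzymes of foreign compounds, 8 were higher (27.6%, against 10.6% of all probe sets) and 2 lower (6.9%, against 14.4%) of 29 measured. Cyp2e1, which oxidises ethanol and paracetamol, read 13.13, 13.22 and 13.32 with Y-linked transcripts and 12.20, 12.56, 11.94, 11.84 and 11.66 without, a difference of 1.18 (SE 0.10, adjusted p 4.42e-07 in limma). Cyp2d9, a testosterone 16-alpha-hydroxylase known from male mice, read 9.88, 10.07 and 10.37 against 8.00, 7.67, 7.79, 7.52 and 7.34 (2.45, SE 0.10). Its relative Cyp2d12 was higher by 0.97 (SE 0.15), with wt6 (10.76) inside the range of the other set. Cyp2d26 and Cyp2d22, of the same cluster on chromosome 15, were lower by 0.96 (SE 0.09) and 0.71 (SE 0.09), both without overlap. The 2d genes thus also ran in both directions. Cyp2s1, an enzyme outside that list, was lower by 0.48 (SE 0.06). Cyp2a4, the steroid 15-alpha-hydroxylase, was higher by 0.92 (SE 0.08) without overlap. Its close relative Cyp2a5, the coumarin 7-hydroxylase, was higher by 0.76 (SE 0.15, adjusted p 0.00135 in limma), and by 0.42 with an adjusted p of 0.147 in the samples with neither tissue.

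**Figure D3:**
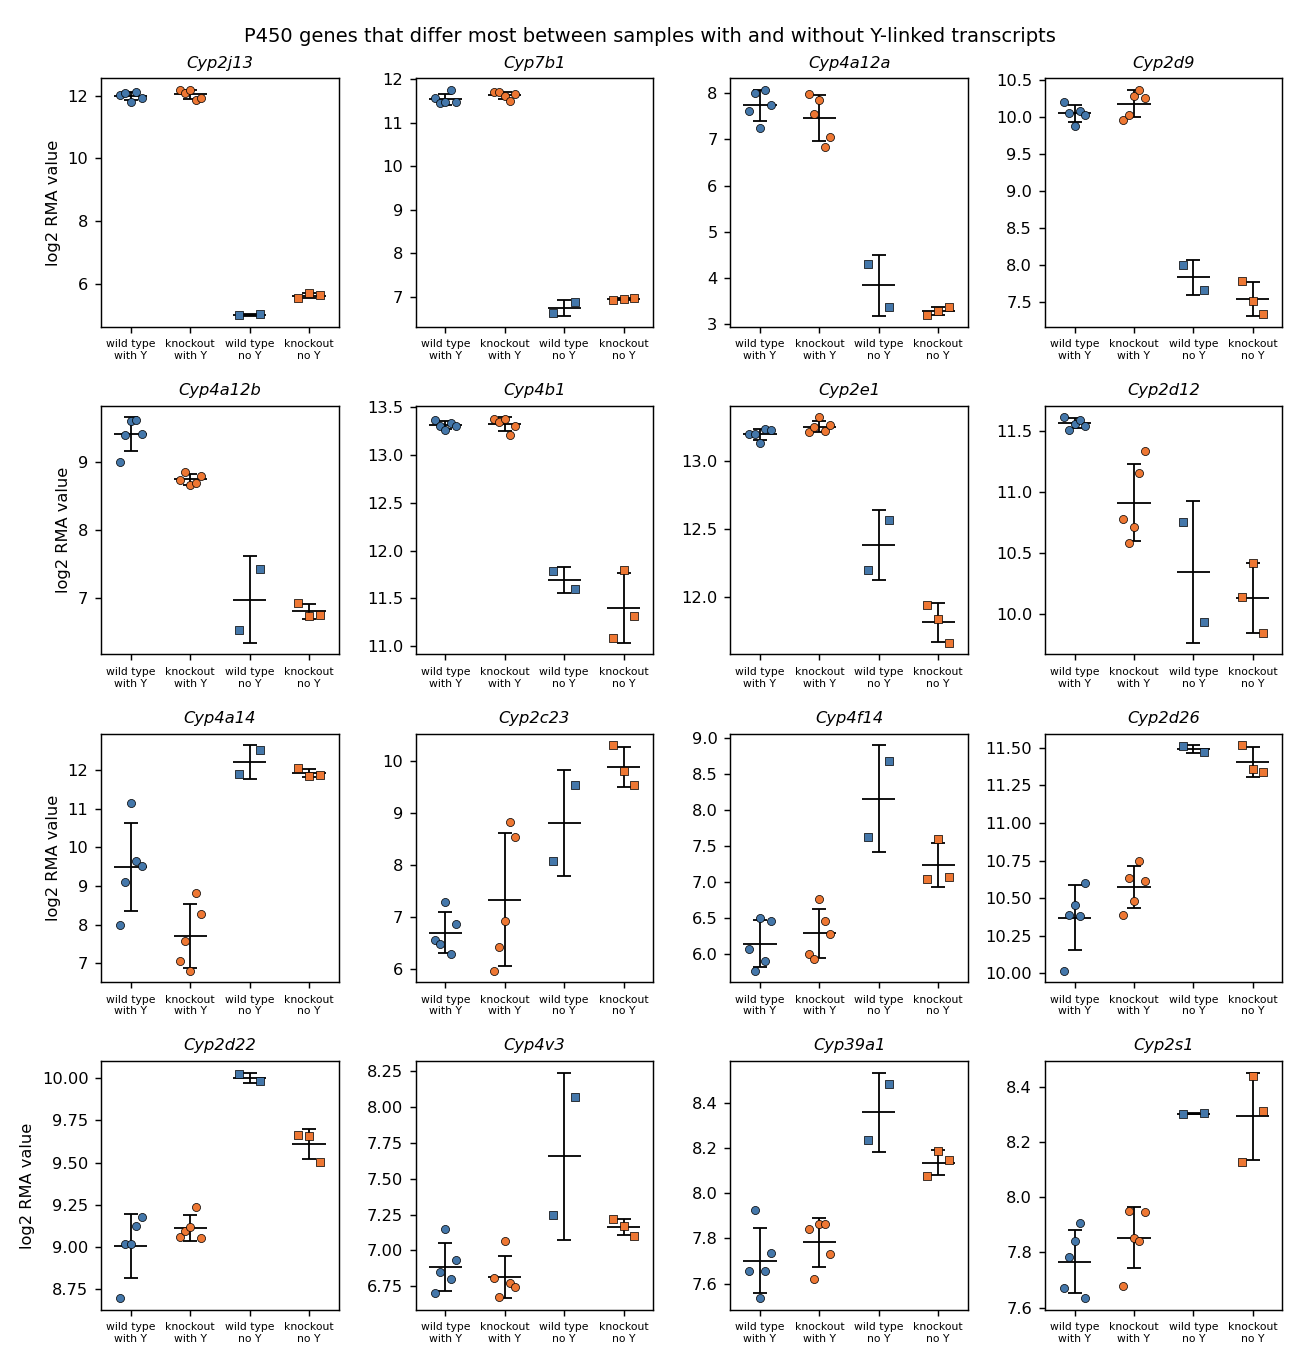
Log2 values (vertical axes, each with its own range) of the 16 P450 genes with the largest differences by Y-linked transcripts, in wild types and knockouts with Y-linked transcripts (5 and 5 circles) and without (2 and 3 squares); lines are means and bars the SD. Cyp2j13 sits at 11.79 to 12.19 in every sample with Y-linked transcripts and at 5.0 to 5.70 in every sample without, while Cyp4a14 runs the other way with a wide spread in the first set.

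The promoters of 4 of these genes are shown because they include a pair of close relatives (Cyp2a4 and Cyp2a5), a bright gene with a TATA box (Cyp2e1) and the gene with the largest difference (Cyp2j13). They are the 250 bases before the RefSeq start site in GRCm38.p6, read 5′ to 3′ along the gene, with the letters TATAAA in capitals. Cyp2a4 lies at chr7:26306942-26307191 (plus strand), Cyp2a5 at chr7:26835089-26835338 (plus), Cyp2e1 at chr7:140763569-140763818 (plus) and Cyp2j13 at chr4:96077548-96077797 (minus).
Cyp2a4: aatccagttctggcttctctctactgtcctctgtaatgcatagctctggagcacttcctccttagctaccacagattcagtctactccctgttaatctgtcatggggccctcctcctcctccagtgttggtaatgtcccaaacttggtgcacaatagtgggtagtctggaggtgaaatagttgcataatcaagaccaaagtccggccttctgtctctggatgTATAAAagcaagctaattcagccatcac
Cyp2a5: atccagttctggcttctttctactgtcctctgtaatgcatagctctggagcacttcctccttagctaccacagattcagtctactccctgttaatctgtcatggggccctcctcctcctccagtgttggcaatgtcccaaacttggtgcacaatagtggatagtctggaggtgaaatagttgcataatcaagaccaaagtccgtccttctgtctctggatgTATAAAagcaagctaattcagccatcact
Cyp2e1: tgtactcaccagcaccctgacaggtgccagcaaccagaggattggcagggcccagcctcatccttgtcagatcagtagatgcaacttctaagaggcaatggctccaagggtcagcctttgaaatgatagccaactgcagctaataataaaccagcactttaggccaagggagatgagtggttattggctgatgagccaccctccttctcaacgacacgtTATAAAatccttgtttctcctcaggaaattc
Cyp2j13: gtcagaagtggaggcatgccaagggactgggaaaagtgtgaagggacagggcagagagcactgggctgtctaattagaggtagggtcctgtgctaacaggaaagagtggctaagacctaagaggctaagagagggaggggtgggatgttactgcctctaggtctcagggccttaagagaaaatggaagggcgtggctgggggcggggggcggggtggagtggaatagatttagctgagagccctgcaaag
The windows of Cyp2a4 and Cyp2a5 were identical at 245 of 251 aligned columns (97.6%), with TATAAA starting at -28 and -29 from the start site. In Cyp2e1 it started at -31, and neither of the 2 windows of Cyp2j13, whose start sites lie 7 bases apart (the upstream one is printed), held it. RefSeq windows matched 70 of the 96 genes (78 windows, since some genes have more than 1 start). TATAAA, on either strand, was present in 30.8% of them, against 12.4% of all 32851 windows of that length. AAGGTCA, which overlaps the half-sites of several nuclear receptors, was present in 10.3% against 4.08%, AGAACA in 20.5% against 16.1% and TTCNNNGAA in 5.13% against 7.02%.

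By genotype, the labelled comparison of the study, which asks what changes in the kidney without Grhl1, no P450 gene passed. In limma 0 of 96 genes had an adjusted p under 0.05, against 0.0128% of all probe sets (3 of 23521), and the smallest adjusted p was 0.588. At an unadjusted p under 0.05 there were 4 genes (4.17%), against 5.55% of all probe sets. The genotypes overlapped for every P450 gene, against 0.123% of all probe sets that did not overlap. The median difference was -0.08 over the 96 genes and 0.0083 over all probe sets, with 65 P450 genes below 0 and 31 above. The 65 include all 25 genes of the liver and wt7 blocks, whose selection on samples that are mostly wild type largely fixes that sign. In the samples with neither tissue it was -0.0049, with 50 below and 46 above. There 0 genes passed (0.00425% of all probe sets) and 4 (4.17%) had an unadjusted p under 0.05, against 3.87% of all probe sets, and the genotypes did not overlap for 2, Cyp3a44 (higher) and Cyp4f39 (lower), which is 2.08% against 2.24% of all probe sets.

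The 10 genes with the smallest unadjusted p were Cyp4f39, Cyp4f17, Cyp3a25, Cyp2d12, Cyp4a31, Cyp8b1, Cyp27a1, Cyp3a13, Cyp3a57 and Cyp4f18. Cyp4f39, a hydroxylase of very long fatty acids in the skin barrier, read 4.71, 4.89 and 5.01 at the lowest, median and highest in wild types and 4.30, 4.62 and 4.82 in knockouts. Its difference was -0.25 (SE 0.07), with an exact two-sided permutation p of 0.00233, unadjusted for the P450 genes it was picked from. The adjusted p was 0.588 in limma. Cyp4f17 read 7.44, 7.59 and 7.92 in wild types and 7.64, 7.85 and 7.93 in knockouts (0.19, SE 0.07, adjusted p 0.738 in limma). Cyp3a25 was dim throughout, 2.40 to 3.34 in wild types and 1.92 to 2.69 in knockouts (-0.32, SE 0.13, adjusted p 0.834 in limma). The value of 3.34 was that of wt7, and without wt7 the difference of Cyp3a25 was -0.22. Cyp2d12 read 9.93, 11.54 and 11.61 against 9.84, 10.65 and 11.34 (-0.59, SE 0.27, adjusted p 0.894 in limma), with its lower values in samples without Y-linked transcripts. The other 6 differed by -0.09 to -0.58. In Cyp8b1 and Cyp3a13 wt7 was far above all other samples, at 7.03 and 7.32, and without it their differences moved from -0.36 to -0.14 and from -0.58 to -0.15.

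With Y-linked transcripts as a covariate, 0 of 96 genes passed (0.0638% of all probe sets), and 9 (9.38%) had an unadjusted p under 0.05, against 8.75% of all probe sets. The smallest adjusted p, 0.224, was that of Cyp4a12b. Within the 10 samples with Y-linked transcripts 0 passed (0.0085% of all probe sets) and 8 (8.33%) had an unadjusted p under 0.05, against 7.72% of all probe sets. There the genotypes did not overlap for 3 genes, Cyp2d12, Cyp4a12b and Cyp4f17 (3.12%, against 1.73% of all probe sets). Of the genes that follow, Cyp4a12b and Cyp4a14 were singled out after their values were seen. Cyp4a12b read 9.01, 9.40, 9.61, 9.63 and 9.42 in wt1 to wt5 and 8.74, 8.86, 8.66, 8.70 and 8.79 in ko8 to ko12, a difference of -0.66 (SE 0.11, adjusted p 0.0898 in limma). Cyp2d12 read 11.51 to 11.61 in those wild types and 10.58 to 11.34 in those knockouts (-0.65, SE 0.13, adjusted p 0.181 in limma). Every wild type was higher in both genes, and neither passed. Cyp4a14 read 8.00, 9.11, 11.17, 9.66 and 9.52 in wt1 to wt5 and 7.04, 7.56, 6.80, 8.81 and 8.26 in ko8 to ko12 (-1.80, SE 0.54, adjusted p 0.476 in limma), with overlap. In the samples without Y-linked transcripts, 2 wild types and 3 knockouts, 0 passed (0.00425% of all probe sets) and 12 (12.5%) had an unadjusted p under 0.05, against 7.29% of all probe sets. In that set Cyp4a12b differed by -0.17 and Cyp4a14 by -0.29.

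**Figure D4:**
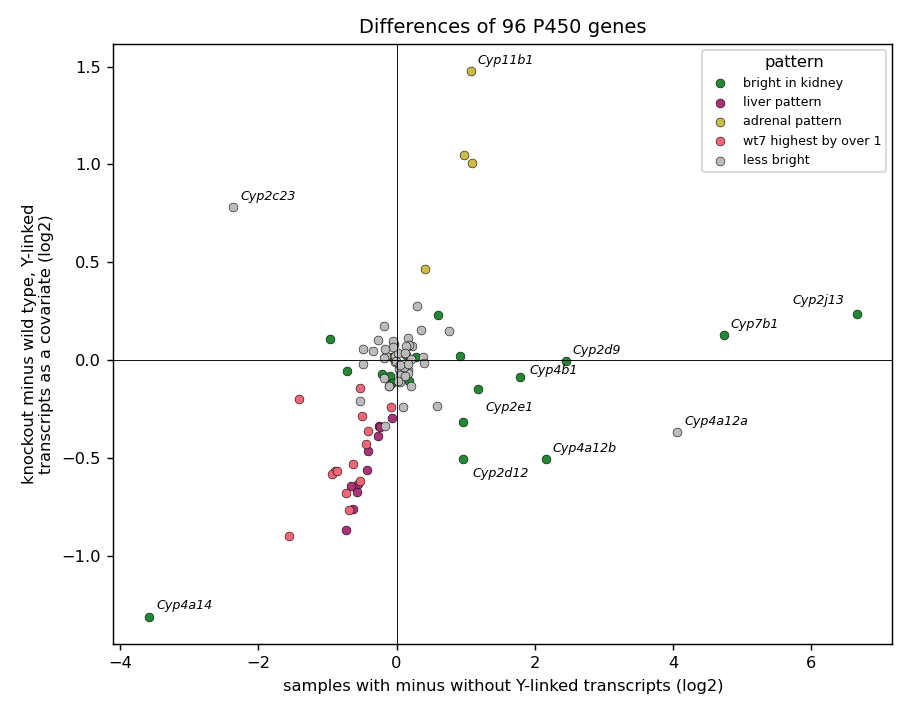
Each point is 1 of the 96 P450 genes, with the log2 difference between samples with and without Y-linked transcripts on the horizontal axis and the log2 difference between knockout and wild type, with Y-linked transcripts as a covariate, on the vertical axis; colours are the patterns. Of the adrenal genes, 3 lie highest and Cyp11b2 lies at 0.46, below Cyp2c23 at 0.78; the liver and wt7 genes, selected on samples that include wild types, lie below 0, and the kidney genes spread along the horizontal axis from Cyp4a14 at -3.58 to Cyp2j13 at 6.66.

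None of the 4 vitamin D enzymes passed by genotype, and Cyp24a1 and Cyp27b1 varied by over 2 log2 units from kidney to kidney. Cyp24a1, the 24-hydroxylase that inactivates vitamin D, read 9.15, 9.79 and 10.88 at the lowest, median and highest in wild types and 7.84, 9.31 and 11.26 in knockouts (-0.40, SE 0.47, adjusted p 0.997 in limma). Its lowest values were 8.49, 7.84 and 8.39 in ko13, ko14 and ko15, and wt6 and wt7, the other samples without Y-linked transcripts, read 10.18 and 10.20. Cyp27b1, the 1-alpha-hydroxylase that activates vitamin D, read 7.30, 7.84 and 9.01 in wild types and 6.88, 7.96 and 8.50 in knockouts (-0.05, SE 0.27). In the same 5 samples it read 7.30 and 7.31 in wt6 and wt7 and 7.85, 8.11 and 8.50 in ko13 to ko15, the opposite order to Cyp24a1. Within the samples with Y-linked transcripts the differences were 0.47 for Cyp24a1, its sign turned, and -0.47 for Cyp27b1, and the genotypes overlapped. Cyp27a1, a mitochondrial sterol 27-hydroxylase, read 9.53 to 9.71 in wild types and 9.16 to 9.74 in knockouts, its lowest values again in ko13 to ko15 (9.37, 9.32 and 9.16). Cyp2r1, the vitamin D 25-hydroxylase, was lower with Y-linked transcripts by 0.33 (SE 0.08, adjusted p 0.00822 in limma), and did not differ by genotype beyond its spread (0.08, SE 0.11).

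Whether the genotype difference itself depended on the Y-linked set was tested as an interaction, and 0 of 96 genes passed (0% of all probe sets). At an unadjusted p under 0.05 there were 23 genes (24%), against 7.04% of all probe sets. In the samples with neither tissue, wt6 was the only wild type without Y-linked transcripts, so no interaction count is given for them. Of those 23 genes, 12 belonged to the liver or wt7 blocks, whose selection on wt7, 1 of only 2 wild types without Y-linked transcripts, fixes much of their interaction, so the count of 23 is not read against the background. Among the other 11, Cyp24a1 had an interaction of 2.42 (SE 0.70, adjusted p 0.533 in limma), Cyp27b1 of -1.32 (SE 0.52, adjusted p 0.658) and Cyp2e1 of 0.63 (adjusted p 0.316). The interaction of Cyp2j13 was -0.55 (adjusted p 0.501), its knockouts without Y-linked transcripts reading 5.53 to 5.70 and its wild types 5.0 and 5.04.

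**Figure D5:**
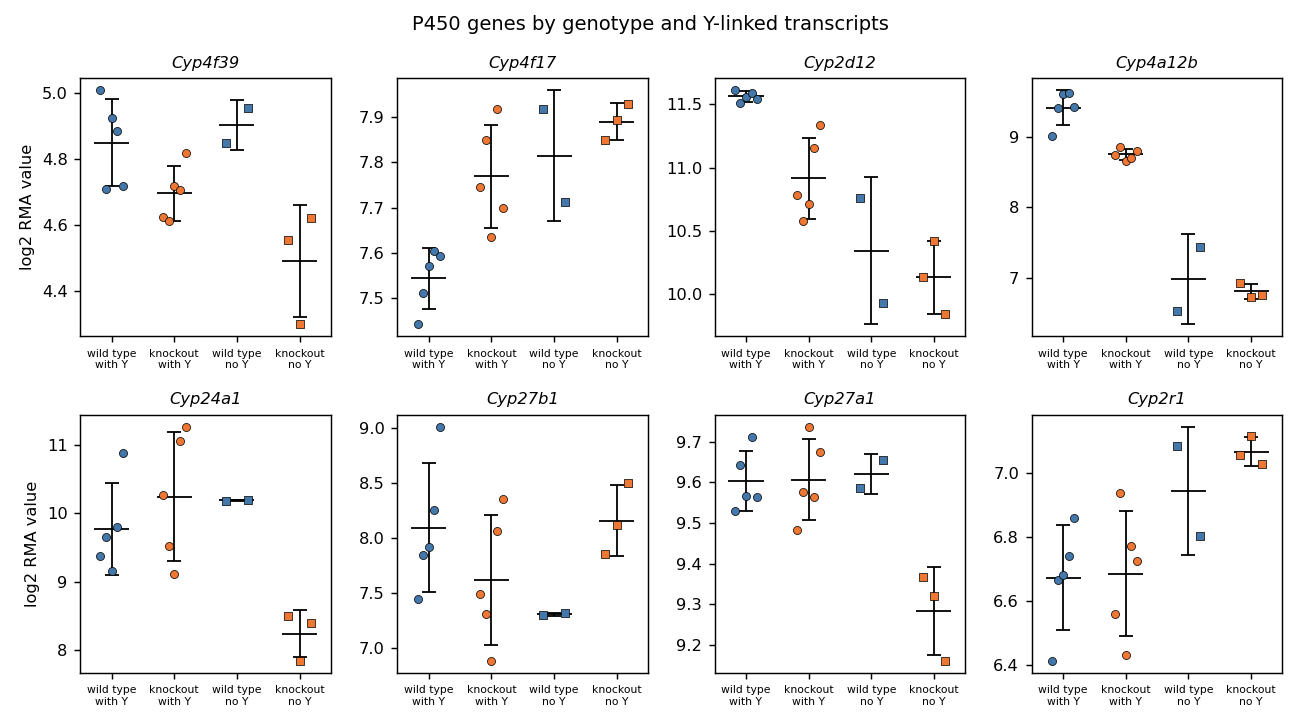
Log2 values (vertical axes, each with its own range) of 8 P450 genes by genotype and Y-linked transcripts, for 5 wild types and 5 knockouts with them (circles) and 2 and 3 without (squares); lines are means and bars the SD. Cyp4a12b and Cyp2d12 read higher in each of the 5 wild types with Y-linked transcripts than in the 5 knockouts with them, and Cyp24a1 and Cyp27a1 have their lowest values in the 3 knockouts without.

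The retinoic acid and aryl hydrocarbon enzymes varied little, with the exceptions of Cyp26b1 and Cyp1a2. Cyp26a1, Cyp26c1 and Cyp1a1 lay under the median brightness of all probe sets (6.18), and their signal over background is not known. Cyp26a1 read 4.62 to 5.04 and Cyp26c1 4.42 to 5.39 over all samples. Cyp26b1, which like them degrades retinoic acid, read 6.34 to 8.60, with ko11 (8.60) and ko9 (7.99) highest and a genotype difference of 0.25 (SE 0.27). Cyp1a1, the classical target of the aryl hydrocarbon receptor, read 4.89 to 5.29, and Cyp1b1 7.32 to 7.67. None of them passed by genotype or by Y-linked transcripts, and the third member of the aryl hydrocarbon list, Cyp1a2, moved with the liver samples. Among all 96 genes, 39 spanned less than 1 log2 unit over the 15 kidneys, 31 of them in the less bright block. The share over all genes was not counted, so this is a description.

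The partner genes of the P450 system gave no genotype call either. Of the electron donor list, which also holds Pgrmc1, 5 of 7 were measured. The reductases Por and Fdxr were not, so the supply of electrons was covered only in part. Of the nuclear receptors and other regulators 12 of 14 were measured, of the partner enzymes 8 of 8 and of the P450 genes with other names 3 of 3. In limma 0 passed in any list, with 1 gene at an unadjusted p under 0.05 in each list but the electron donors, where there was none. The smallest unadjusted p values were those of Tbxas1, the thromboxane synthase (0.25, SE 0.08, adjusted p 0.606 in limma), and Alas1, the first enzyme of haem synthesis (-0.36, SE 0.11, adjusted p 0.610). Next in order within their lists were the regulators Hnf4a (-0.10, adjusted p 0.889) and Vdr (0.09), the electron donors Cyb5a (-0.10) and Cyb5r3 (-0.04), the epoxide hydrolase Ephx2 (-0.18) and Cyp51 (-0.05). By Y-linked transcripts 24.9% of all probe sets passed, 45.1% of the bright ones. There 4 of the 5 measured members of the electron donor list were higher, among them Cyb5a by 0.42 and the mitochondrial ferredoxin Fdx1 by 0.51. The 1 lower member was Pgrmc1, by 0.38, which is not itself an electron donor. Of the 12 regulators 4 were higher (Esr1, Nr1h4, Rxra and Hnf4a) and 4 lower (Nr1i2, Ahr, Stat5b and Arnt). Nr1i2, the xenobiotic receptor PXR, was lower by 0.76, and Ppara did not pass (-0.11). Of the 8 partner enzymes 3 were higher (Ephx2, Adh1 and Hsd11b1) and 3 lower (Aldh1a2, Ephx1 and Hsd11b2). Ephx2, which degrades the epoxides that P450 enzymes make, was higher by 1.12 (SE 0.07). The epoxide hydrolase Ephx1 was lower by 0.51 (SE 0.07).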

How the data were processed

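Kidney RNA of 15 mice was labelled with biotin and hybridised to expression arrays. The deposited log2 values are summaries per probe set that the authors made with RMA, per the submitters' processing notes; its version is not given in the sources used here, nor is the array's genome build. RMA equalises the arrays, so a shift of most genes 1 way is removed, and it compresses dim probe sets. No scanner files were analysed here, and precision rests on the number of arrays.

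Of 41345 probe sets, 23521 had exactly 1 gene symbol and were tested together, 1814 had several and 16010 were unnamed here. Symbols were updated by Entrez ID to GRCm38.p6 for 23328. Differences were fitted with limma 3.58.1 (R 4.3.3; lmFit and eBayes, no trend), two-sided, with a Benjamini-Hochberg threshold of 0.05, by genotype, by Y-linked transcripts with genotype as a term, and as their interaction. Exact permutations of single genes used 6435 splits. A sample held liver or adrenal transcripts where its marker mean exceeded the median by more than 1. No 2 arrays were identical. The design text counts mice, so each array is taken as 1 animal. The fit was tested on simulated data.

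Named by rule were the 10 P450 genes with the smallest p by genotype, up to 8 per direction by Y-linked transcripts, up to 6 per tissue pattern by gap, and all genes of the vitamin D, retinoic acid, steroid and aryl hydrocarbon lists; partner lists gave members that passed or the 2 smallest p. Cyp4a12b and Cyp4a14 within samples with Y-linked transcripts, and other genes outside this rule, were picked with their values in view. Members and lists were chosen with earlier results of these data known. Alternatives were other sample sets, marker covariates, an intensity trend, a brightness filter, other probe set rules and single samples left out. Promoters came from RefSeq.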

Additional observations from a re-analysis of the deposited data

Results flagged for a closer look

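Among 88 groups of 44 genes, 13 held a sample separated from the rest of its genotype by more than Dixon's 95% value, where chance gives about 1 in 20 among genes not picked for such samples. The 44 genes include liver-pattern genes picked because wt3, wt7 and ko10 stand apart, so their count is a description and is not set against that rate. Of these, 8 were wt7, at 7.90 for Cyp17a1 (other wild types 4.92 to 5.14), 9.25 for Cyp2a12, 8.57 for Cyp2c29, 7.32 for Cyp3a13, 3.34 for Cyp3a25, 8.07 for Cyp4v3 (6.71 to 7.24), 8.48 for Cyp7a1 and 7.03 for Cyp8b1. The other 5 were ko10, at 7.43 for Cyp1a2 (other knockouts 4.73 to 4.99), 6.00 for Cyp2a12, 5.59 for Cyp2c29, 6.98 for Cyp2c70 and 5.43 for Cyp7a1 (2.78 to 3.14). Both samples had raised liver markers, at means of 10.8 and 8.61, and the part of these in the single values was not tested. Cyp3a25 and Cyp4v3 are not in the liver or wt7 blocks.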

How the results depend on the processing

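The count of P450 genes that passed by genotype was 0 in all 24 settings, and the count by Y-linked transcripts was 25 to 29 over 21 settings. All 320 values of the 16 genes named by Y-linked transcripts kept their direction and stayed past the threshold. In the samples with neither tissue the genotypes did not overlap for 2 genes (Cyp3a44 and Cyp4f39), in place of 0. With the median in place of the 75th percentile the genes bright in kidney were 36 in place of 21. Of the genotype differences of 18 named genes, 396 values kept their sign and 11 in 7 genes reversed. Within the samples with Y-linked transcripts Cyp27a1 was at 0.0044 and Cyp24a1 at 0.47. Cyp27b1 ranged from -0.14 (without ko15) to 0.14 (without wt5) as single samples were left out, with 0.017 without wt4, 0.025 without ko9 and 0.086 without ko10, and was at 0.85 within the samples without Y-linked transcripts. With the liver and adrenal marker means as covariates Cyp11b1 was at -0.048, Cyp11a1 at -0.23, Cyp21a1 at -0.15 and Cyp11b2 at -0.017. The cause of these reversals was not tested. The labels give neither pairs nor litters, so no paired analysis was run. Signal over background was not available, so dim probe sets such as Cyp3a25 have no lower limit here. With 2 wild types without Y-linked transcripts, 1 of them with liver transcripts, comparisons within that set have few samples.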

Other observations

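The brighter probe set of Cyp2f2, a naphthalene epoxidase of lung and liver, was higher with Y-linked transcripts by 0.60, and its second probe set was lower by 0.68. That second probe set read 9.27 in wt7, 9.27 in ko13 and 8.13 in wt3, against 6.77 to 7.76 elsewhere, while the brighter one read 8.24 in ko13, the lowest of all samples. The second probe sets of Cyp2c29 and Cyp2c55 read 2.87 to 3.76 and 3.36 to 3.99, and the former showed no rise in wt7 (3.30), where the brighter probe set read 8.57. A probe set shared by Cyp2c67 and Cyp2c68 read 6.01 in wt3, 8.10 in wt7 and 5.86 in ko10 and at most 4.59 elsewhere, the liver order, although Cyp2c68 by its own probe set belonged to the wt7 block. A probe set shared by Klkb1 and Cyp4v3 read 8.64 in wt7.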
